A study of Homo sapiens with 4 samples.

Results

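The human nucleoplasmin family has the genes NPM1, NPM2 and NPM3. They were followed here together with NPM1P27, a processed pseudogene of NPM1, in OCI-AML3 cells with and without knockout (KO) of mutant NPM1 (mtNPM1). The genes were chosen by name, and these 4 rows are among 58037 in the count table. Other NPM1 pseudogenes have 48 further rows.

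Nucleoplasmins are acidic histone chaperones. They assemble into ring-shaped oligomers, bind core histones or ribosomal proteins, and hand them on during chromatin and ribosome assembly. NPM1 (nucleophosmin, B23) is an abundant nucleolar protein that shuttles to the cytoplasm and binds the tumor suppressor ARF. In acute myeloid leukemia (AML) its commonest mutation, mutation A, shifts the reading frame near the end of the coding sequence, creates a nuclear export signal and moves the protein to the cytoplasm. NPM2 is the maternal nucleoplasmin of the oocyte. NPM3 lacks the long C-terminal part of NPM1 and is known to form complexes with it.

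OCI-AML3 is an established human AML cell line. As the study describes it, the line has heterozygous mutations in NPM1 and DNMT3A and a homozygous NRAS mutation, which all 4 libraries share. The cells were transfected with a control guide (sgRNA Ctrl, sgNeg in the labels, 2 libraries) or with sgNPM1A, a guide against the mutant allele (2 libraries), and were harvested after 72 h. The edited cells were a pool, the remaining wild-type allele is counted in the same NPM1 row, and the share of edited alleles was not measured here. The study calls the libraries biological replicates, but the labels do not say whether they came from separate cultures, so the p-values measure the spread between these libraries only.

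The deposited values are unnormalized read counts per gene. They summed to between 25069484 and 28276391 per library, and a floor of 3 counts was worth 0.108 to 0.118 CPM, the unit used below for counts scaled by library total and TMM factor. Of all genes, 15718 passed the filter on low counts and were tested. All 8 myeloid markers examined were among them. With sgNPM1A 5 rose (SPI1, MPO, LYZ, CSF3R and ITGAM), where 10.5% of all genes tested were called higher. The summed level of the 8 was 1324 to 1350 CPM with sgRNA Ctrl and 4085 to 4814 CPM with sgNPM1A. Most of that difference was LYZ (271 and 215 against 2643 and 3367 CPM), and the other 7 summed to 1079 and 1109 against 1442 and 1447 CPM. CD33, CEBPA and PTPRC were not called. The part of this shift in the results below was not tested. The 3 T-cell markers were at 0 in every library, and the 3 erythroid, 3 epithelial and 3 B-cell markers summed to between 0 and 2.05 CPM. The 3 fibroblast markers summed to 28.1 to 29.4 CPM with sgRNA Ctrl and 9.62 to 13.3 CPM with sgNPM1A. Of these, 2 fell, where 10.3% of all genes tested were called lower.

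NPM1 lies on chromosome 5 and NPM1P27 is a separate locus on the same chromosome, on the minus strand. The end of the NPM1 coding sequence is shown because mutation A duplicates its TCTG, given in capitals, and this is what tells the mutant from the wild-type allele. The stretch is from the reference transcript (the canonical one of GENCODE, plus strand, positions 926 to 985 of 1320), and the TCTG is at positions 960 to 963. The last exon holds only the final 39 coding bases.
NPM1 reference coding end: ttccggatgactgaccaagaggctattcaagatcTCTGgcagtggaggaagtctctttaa

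The pseudogene holds the same stretch with 1 base changed, which is why reads of NPM1 and NPM1P27 are hard to separate there. The capital marks the difference, and the lines show positions 926 to 984 of the NPM1 transcript and 772 to 830 of NPM1P27.
NPM1: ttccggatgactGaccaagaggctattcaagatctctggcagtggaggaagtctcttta
NPM1P27: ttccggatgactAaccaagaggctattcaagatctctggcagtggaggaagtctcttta

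The 830 bases of NPM1P27 aligned with positions 151 to 984 of the NPM1 transcript, whose coding part runs from 101 to 985. Over 834 alignment columns 819 were identical (98.2%), with 11 mismatches and 4 bases of NPM1 missing from the pseudogene. The longest identical run was 239 bases. The differences were unevenly spread, and 7 of the 15 lay within a single 100-base window near the start of the coding part. This window is shown, with every difference in capitals, since it is where a read can best be assigned. It covers positions 170 to 269 of NPM1 and 20 to 118 of NPM1P27.
NPM1 window: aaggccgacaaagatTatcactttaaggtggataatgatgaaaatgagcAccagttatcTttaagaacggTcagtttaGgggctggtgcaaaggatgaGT
NPM1P27 window: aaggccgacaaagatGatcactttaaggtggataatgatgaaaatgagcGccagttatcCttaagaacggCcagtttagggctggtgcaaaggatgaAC

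**Figure D1:**
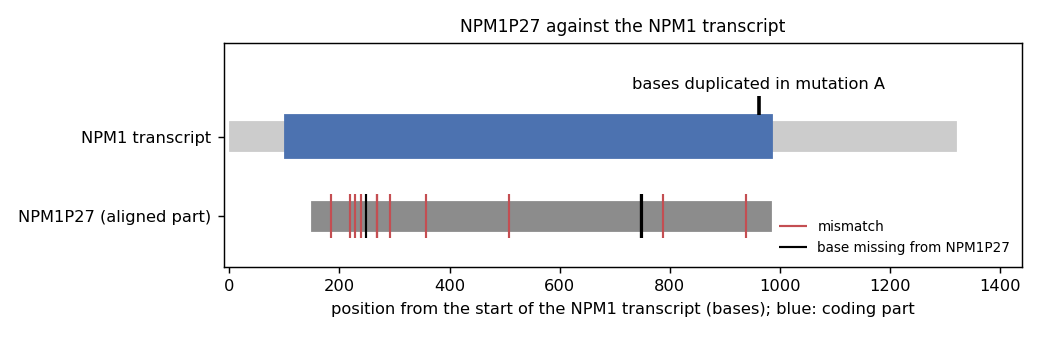
Map of NPM1P27 on the NPM1 transcript, with position in bases from the transcript's start on the horizontal axis, the coding part in blue, mismatches as red lines and missing bases as black lines. Of the 15 differences 7 lie between 170 and 269 and 3 are the neighbouring missing bases at 747 to 749, and the site duplicated in mutation A (960 to 963) lies in a stretch with 1 difference.

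Exact sharing was counted with words of 50 bases over all annotated transcripts, read in both orientations. Of the 781 different words of NPM1P27, 411 (52.6%) also occur in NPM1 and 532 (68.1%) in at least 1 other gene. Of the 9108 words of all NPM1 transcripts, 807 (8.86%) occur in another gene, 411 of them in NPM1P27 and 229 in CLEC2D. NPM2 and NPM3 shared 0 words with any other gene. The NPM1 words come from all its annotated transcripts, whose exons together cover 8311 bases. NPM1P27 aligned with positions 151 to 984 of the canonical transcript of 1320 bases, so 8.86% is not the shared part of that transcript. Because of the shared words, the values of NPM1P27 are uncertain, and those of NPM1 may be too, to an extent not measured here. How reads with several matching places were counted is not given in the sources used here.

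Did the family's RNA levels differ after the guide against mtNPM1? Among the 3 members that could be tested, NPM3 rose by 0.45 on the log2 scale, NPM1 was 0.22 lower on that scale but short of the fold threshold, and NPM1P27 did not pass the test. A gene was called when its Benjamini-Hochberg adjusted p in edgeR's quasi-likelihood test was under 0.05 and its log2 fold change at least 0.32 in size. So 1 of 3 tested members was called, against 20.8% of all genes tested. The libraries of the groups did not overlap for any of the 3, a pattern found in 63.1% of all genes tested. In these bulk libraries, fewer cells that hold an RNA and less of it per cell cannot be told apart.

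NPM1 (ENSG00000181163.13, chr5:171387116-171410900, GRCh38) is the gene the guide is aimed at. It had 33522 and 35881 counts in the sgRNA Ctrl libraries and 33154 and 31428 in the sgNPM1A libraries. Scaled to library size these are 1319 and 1385 CPM against 1189 and 1132 CPM. Both sgNPM1A libraries lay below both sgRNA Ctrl libraries, with means of 1161 ± 40.7 and 1352 ± 47.1 CPM (SD, n = 2 each). The log2 fold change was -0.22 (SE 0.07, 95% interval -0.37 to -0.07), with an edgeR adjusted p of 0.0360. That is a level 1.16-fold higher with sgRNA Ctrl, under the fold threshold, and the row cannot tell the mutant from the wild-type transcript.

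The adjusted p of NPM1 (edgeR, with Benjamini-Hochberg adjustment) was 0.0677 without sgRNA Ctrl replicate 2, 0.216 without sgNPM1A replicate 1 and 0.440 without sgNPM1A replicate 2. With limma-trend on quantile-normalized values the log2 fold change was -0.42 (adjusted p 0.00108), which would be a call.

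**Figure D2:**
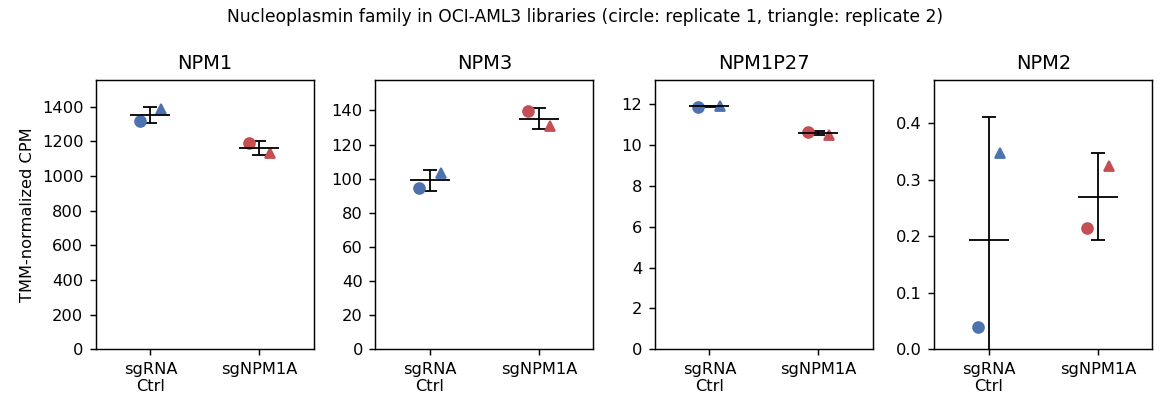
TMM-normalized CPM (vertical axes from 0, each with its own scale) of NPM1, NPM3, NPM1P27 and NPM2 in the 4 libraries, with horizontal bars for means and error bars for SD (n = 2, cut off at 0 for NPM2). NPM3 lies higher in both sgNPM1A libraries (131 and 139 CPM) than in both sgRNA Ctrl libraries (94.6 and 103 CPM), and NPM2 overlaps between the groups below 0.35 CPM.

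NPM3 (ENSG00000107833.10, chr10:101781325-101783446), the short nucleolar member, had 2405 and 2681 counts with sgRNA Ctrl and 3886 and 3633 with sgNPM1A. The levels were 94.6 and 103 CPM against 139 and 131 CPM. The lower of the sgNPM1A libraries stood well above the higher of the sgRNA Ctrl libraries, and the group means were 99.1 ± 6.30 and 135 ± 6.06 CPM (SD, n = 2). NPM3 rose by 0.45 on the log2 scale (SE 0.07, 95% interval 0.29 to 0.61, edgeR adjusted p 0.00101), where 10.5% of all genes tested were called higher. Leave-one-out fits gave a log2 value between 0.38 and 0.52.

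NPM1P27 (ENSG00000249353.2, chr5:93682519-93683733, minus strand) had 301 and 308 counts with sgRNA Ctrl and 296 and 291 with sgNPM1A, or 11.8 and 11.9 CPM against 10.6 and 10.5 CPM. The sgNPM1A libraries were again the lower ones. The log2 fold change was -0.17 (SE 0.11, 95% interval -0.42 to 0.08, edgeR adjusted p 0.304). The interval takes in both 0 and the log2 fold change of NPM1.

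NPM2 (ENSG00000158806.13, chr8:22024134-22036897), the oocyte nucleoplasmin, was at the limit of detection. Its counts were 1 and 9 with sgRNA Ctrl and 6 and 9 with sgNPM1A, or 0.0393 and 0.348 CPM against 0.215 and 0.324 CPM. The groups overlapped, and the row did not pass the filter on low counts. Summed over libraries the counts were 10 against 15, a ratio of 1.38 after scaling with an exact interval of 0.58 to 3.44 that covers counting error only. Fitted without the filter, NPM2 had a log2 fold change of 0.46 (SE 0.67, edgeR adjusted p 0.713), so a difference was not detectable at this depth.

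**Figure D3:**
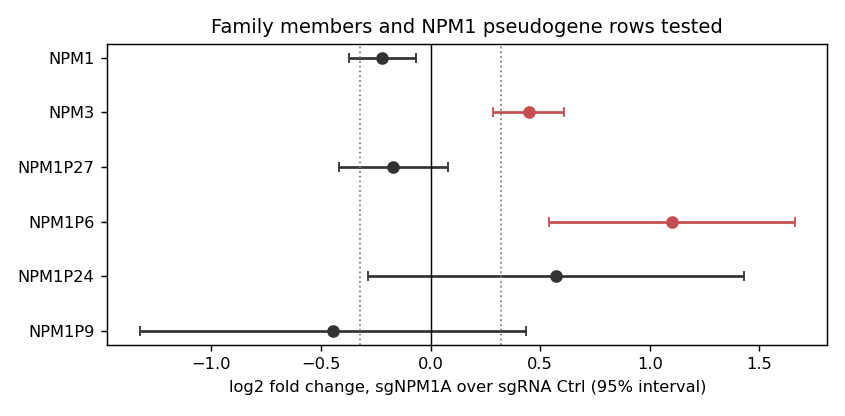
Log2 fold change of sgNPM1A over sgRNA Ctrl (horizontal axis) with 95% intervals for the tested family members and NPM1 pseudogene rows, called rows in red, and dotted lines at the fold threshold of 0.32 either way. NPM3 (0.45) and NPM1P6 (1.10) are past the right line, NPM1P24 (0.57) and NPM1P9 (-0.45) are past a line without being called, and NPM1 (-0.22) and NPM1P27 (-0.17) lie between the lines.

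Levels of different genes were compared per length, as RPKM over the length of the canonical transcript (1320 bases for NPM1, 910 for NPM3 and 830 for NPM1P27). On that scale NPM1 ranked 76 of 15424 genes over the 4 libraries, NPM3 ranked 588 and NPM1P27 ranked 4704. NPM1 was 9.61 and 9.23 times the level of NPM3 in the sgRNA Ctrl libraries and 5.88 and 5.96 times in the sgNPM1A libraries. Against NPM1P27 the ratio was 70.0 and 73.3 with sgRNA Ctrl and 70.4 and 67.9 with sgNPM1A, so that the ranges overlapped. The annotated exons of NPM1 together cover 8311 bases, and its level per length would be lower if that length were used.

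Within a library the scaling cancels, so the balance of the members can be read directly from counts. NPM3 made up 6.69% (Wilson 95% interval 6.44 to 6.96) and 6.95% (6.70 to 7.21) of the NPM1 and NPM3 counts with sgRNA Ctrl. With sgNPM1A the share was 10.5% (10.2 to 10.8) and 10.4% (10.0 to 10.7). The sgNPM1A libraries were both higher, and the log2 ratio of NPM3 to NPM1 differed by 0.67, a fold of 1.59. The exact permutation test over libraries gave p = 0.33 (two-sided), the smallest value that 2 against 2 libraries allow.

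NPM1P27 made up 0.890% (Wilson 95% interval 0.795 to 0.996) and 0.851% (0.762 to 0.951) of the NPM1 and NPM1P27 counts with sgRNA Ctrl. With sgNPM1A it made up 0.885% (0.790 to 0.991) and 0.917% (0.818 to 1.03). These shares overlapped between the groups, with a difference of means of 0.0307 percentage points (exact permutation p = 0.667, two-sided). The intervals cover counting error only.

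Of the 48 other NPM1 pseudogene rows, 21 had no count in any library and 24 had counts with a mean under 10. NPM1P6, NPM1P9 and NPM1P24 were the 3 above that mean, and the same 3 were tested. All 48 together held 86 and 88 counts with sgRNA Ctrl and 117 and 122 with sgNPM1A. With NPM1P27 included, pseudogene rows made up 1.14% and 1.09% of NPM1 plus pseudogene counts with sgRNA Ctrl and 1.23% and 1.30% with sgNPM1A. Adding all of them to the NPM1 row left its log2 fold change at -0.22 (edgeR adjusted p 0.0372). So small a share could hardly move the row, and reads left out before counting, if any, are not covered.

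NPM1P6 is 95.5% identical to the NPM1 transcript, and 30.2% of its 50-base words occur in another gene. It had 22 and 23 counts with sgRNA Ctrl and 51 and 54 with sgNPM1A. Both sgNPM1A libraries were higher, and NPM1P6 rose by 1.10 on the log2 scale (SE 0.25, edgeR adjusted p 0.00840). With DESeq2 the adjusted p was 0.0679. The gene around it, CLVS1, had 3 and 1 counts with sgRNA Ctrl and 0 in both sgNPM1A libraries.

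NPM1P24 (93.7% identical to NPM1) had 10 and 11 counts against 16 and 18, and a log2 fold change of 0.57 (edgeR adjusted p 0.319). NPM1P9 (91.2% identical) had 16 and 13 counts against 12 and 11, and a log2 fold change of -0.45 (edgeR adjusted p 0.459). It lies within FANCB, with which it shares all its words. Neither row was called.

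**Figure D4:**
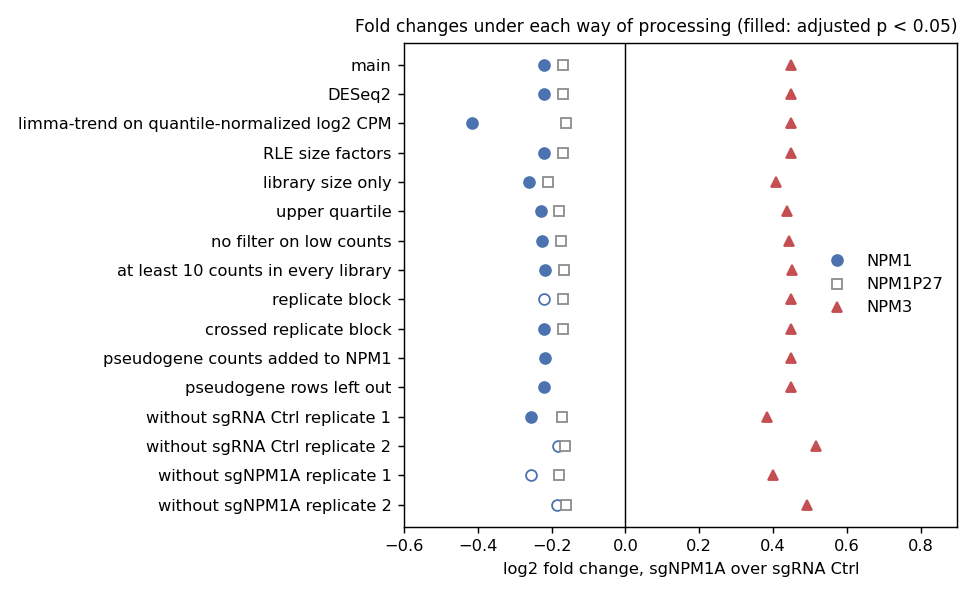
Log2 fold change of sgNPM1A over sgRNA Ctrl (horizontal axis) of NPM1, NPM1P27 and NPM3 under each way of processing (rows), filled where the adjusted p was under 0.05. NPM3 stays between 0.38 and 0.52 and filled throughout, NPM1 stays between -0.42 and -0.18 and is open in 4 rows, and NPM1P27 is open in every row in which it has a value.

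NPM1 works through its partners, and 33 genes that bind it, modify it or act with it were all tested. With sgNPM1A, 3 rose and 3 fell (10.5% of all genes tested were called higher and 10.3% lower), which is 18.2% called against 20.8% of all genes tested, and their median log2 fold change was -0.01 against 0.00. The largest rise was that of CDKN2A, which encodes ARF, the protein that NPM1 holds in the nucleolus, and p16, an inhibitor of cyclin-dependent kinases. Its counts of 178 and 208 with sgRNA Ctrl stood against 1105 and 1083 with sgNPM1A, and its level rose from 7.52 ± 0.73 to 39.3 ± 0.45 CPM (SD, n = 2). The log2 fold change was 2.39 (SE 0.10, edgeR adjusted p 8.18e-08), and gene counts cannot tell ARF from p16.

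Of the kinases of the list, PLK2, which acts in centriole duplication, rose from 2.01 ± 0.05 to 5.03 ± 0.04 CPM (log2 1.32, edgeR adjusted p 0.000234). ROCK2, a kinase that NPM1 binds at centrosomes, fell from 115 ± 3.97 to 47.9 ± 0.58 CPM (log2 -1.26, adjusted p 4.19e-07). CDK2, which phosphorylates NPM1 with cyclin E, fell from 63.3 ± 1.56 to 46.2 ± 0.43 CPM (log2 -0.45, adjusted p 0.000974). EIF2AK2, the RNA-activated kinase PKR that NPM1 binds, fell from 26.6 ± 0.32 to 18.0 ± 0.18 CPM (log2 -0.57, adjusted p 0.000815). The groups did not overlap for these 4 kinases, as for 63.1% of all genes tested. These 4 are named because they were called, so the lack of overlap is no separate evidence. The other kinases of the list, CDK1, PLK1, CSNK2A1, CSNK2A2 and AURKB, were not called, with log2 fold changes from -0.17 to 0.11. APEX1, a base excision repair endonuclease, rose from 327 ± 16.2 to 416 ± 4.90 CPM (log2 0.35, adjusted p 0.00288).

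MDM2, XPO1, NCL and FBL of this list were not called. MDM2, a ubiquitin ligase, was at 58.6 ± 3.72 CPM with sgRNA Ctrl and 71.3 ± 3.32 CPM with sgNPM1A (log2 0.28, edgeR adjusted p 0.0216, under the fold threshold). For XPO1, the exportin that carries mutant NPM1 out of the nucleus, the log2 fold change was -0.14 (adjusted p 0.223). The nucleolar proteins NCL (nucleolin) and FBL (fibrillarin) had log2 fold changes of -0.12 (adjusted p 0.280) and 0.05 (adjusted p 0.655).

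Among 31 other histone chaperones, all tested, 1 rose and 1 fell, which is 6.45% against 20.8% of all genes tested. Their log2 fold changes were below 0 in 26 of 31 (83.9%, against 50% of all genes tested), with a median of -0.09. ANP32E, a chaperone that removes the histone variant H2A.Z, rose from 222 ± 7.26 to 327 ± 8.36 CPM (log2 0.56, edgeR adjusted p 8.32e-05). CABIN1, a subunit of the HIRA histone-deposition complex, fell from 139 ± 2.47 to 108 ± 1.16 CPM (log2 -0.37, adjusted p 0.00166).

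In the nucleolus, NPM1 lies around the sites of ribosomal RNA transcription and processing. Of 19 genes of RNA polymerase I transcription, all tested, 0 rose and 1 fell (5.26% called, against 20.8% of all genes tested), with a median log2 fold change of -0.08. POLR1F, a subunit of RNA polymerase I, fell from 96.1 ± 3.72 to 66.2 ± 6.15 CPM (log2 -0.54, edgeR adjusted p 0.000593). Without sgRNA Ctrl replicate 2 the list had 3 called genes, and without sgNPM1A replicate 2 it had 2. Of 27 genes of RNA modification and assembly of the large ribosomal subunit, 26 were tested, with BOP1 not matched in the table. None was called by edgeR or by DESeq2, against 20.8% of all genes tested by edgeR. An unadjusted edgeR p under 0.05 was found for 4. An adjusted edgeR p under 0.05 was found for 1, against 26% of all genes tested. The median log2 fold change was -0.02. Without sgRNA Ctrl replicate 1, 1 was called.

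NPM2 is known from the oocyte, and of 15 oocyte genes only ZP3 and GDF9 passed the filter. Neither was called by edgeR or by DESeq2, against 20.8% of all genes tested by edgeR, and 0 had an unadjusted edgeR p under 0.05. With 2 genes tested, the lack of a call says little about the list. ZP3, a zona pellucida protein, had a log2 fold change of 0.16 (edgeR adjusted p 0.478) and GDF9, an oocyte growth factor, of -0.51 (adjusted p 0.534). No library had more than 9 counts for any of the others.

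**Figure D5:**
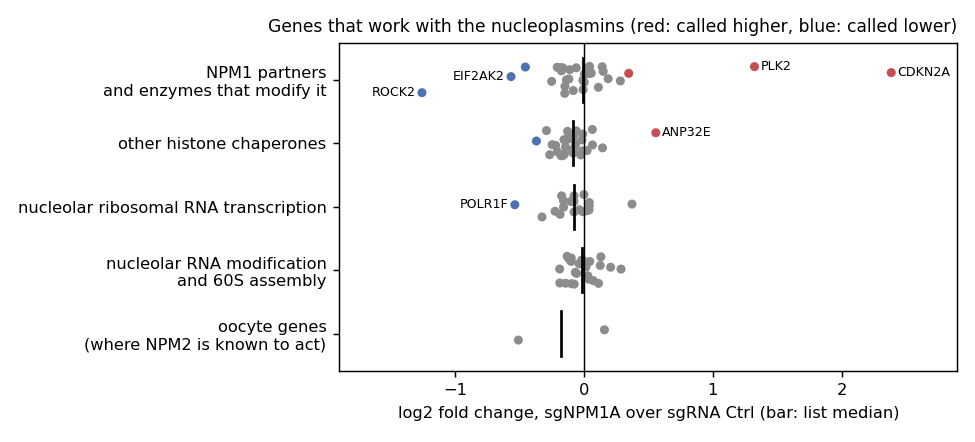
Log2 fold change of sgNPM1A over sgRNA Ctrl (horizontal axis) of every tested gene in the 5 lists (rows), with genes called higher in red, genes called lower in blue and the list median as a black bar. CDKN2A (2.39) and ROCK2 (-1.26) are the extremes, and the medians of the first 4 lists lie between -0.09 and -0.01.

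Genes within 1 Mb of each member were listed to see what else moved at these loci. Of 21 near NPM1, 6 were tested, of which 2 rose and 2 fell (66.7%, against 20.8% of all genes tested). FGF18, a fibroblast growth factor gene, starts 8747 bases after the end of NPM1. Its counts were 1 and 1 with sgRNA Ctrl against 367 and 332 with sgNPM1A, at least 107-fold higher against a floor of 3 counts per library (edgeR adjusted p 3.94e-08). FGF18 passed the filter on low counts only through the sgNPM1A libraries, so its place among the 6 tested genes was not independent of its call. KCNMB1, a potassium channel subunit, rose (54 and 41 against 91 and 78 counts, log2 0.71, adjusted p 0.0339). UBTD2 (375 and 408 against 337 and 327 counts, log2 -0.35, adjusted p 0.0318) and SH3PXD2B (612 and 486 against 304 and 315 counts, log2 -0.94, adjusted p 0.000282) fell.

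Of 55 genes near NPM3, 34 were tested, and 2 rose (5.88% called, against 20.8% of all genes tested). PDZD7 had 447 and 418 counts against 721 and 695 (log2 0.59, edgeR adjusted p 0.000882). ELOVL3, a fatty acid elongase, had 23 and 20 counts against 57 and 91 (log2 1.66, adjusted p 0.00194). Of 13 genes near NPM1P27, 4 were tested, and 1 was called (25%, against the same 20.8%). This was SLF1, a DNA repair factor, which fell (425 and 452 against 362 and 376 counts, log2 -0.37, adjusted p 0.0228).

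The genes most like each member were found by the Euclidean distance between log2 CPM over the 4 libraries, each gene centred on its mean, among 8855 other genes with a mean above 10 CPM. Nearest to NPM1 were DDX51 (distance 0.0100), ATG9A (0.0138) and SSB (0.0176), and 503 genes lay within 0.1. Nearest to NPM3 were MTF2 (0.0208), ATP6V1F (0.0291) and NAB2 (0.0319), and 98 genes lay within 0.1. Nearest to NPM1P27 were NT5C3A, NAA60 and RABL6, and 818 genes lay within 0.1. With 4 libraries such a likeness is a description, and many genes share each pattern.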

How the data were processed

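RNA-Seq was analysed for 4 OCI-AML3 libraries, 2 per condition. The authors mapped reads with STAR to hg38 and deposited raw read counts per Ensembl gene. The counting program, the annotation release, strandedness and the treatment of reads with several matches are not given in the sources used here. Symbols came from a table of Ensembl identifiers, positions from RefSeq on GRCh38, and sequences from GENCODE transcripts. Words of 50 bases from the members and named pseudogenes were looked for in all transcripts, in both orientations. NPM1P27 was aligned to the canonical NPM1 transcript.

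The counts were tested with edgeR 4.0.16 in R 4.3.3 (filterByExpr with a minimum count of 10, TMM, robust quasi-likelihood F test, two-sided, Benjamini-Hochberg over 15718 genes). A call needed an adjusted p under 0.05 and a fold of at least 1.25. DESeq2 1.42.0, limma-trend (limma 3.58.1), other scalings, filters and thresholds, the pseudogene rows merged or left out, a replicate block and leaving out each library were alternatives. With a library left out, the lone library of its condition is assumed to vary like the others. Shares have Wilson 95% intervals.

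Members and gene lists were chosen with earlier results of these data known. Named genes were the 4 members, pseudogene rows with a mean of at least 10 counts, MDM2, CDKN2A, XPO1, NCL and FBL, up to 3 called genes per list and direction, called genes within 1 Mb of a tested member, and the 3 nearest patterns. CLVS1 and FANCB are named as genes around pseudogenes, and CLEC2D for its shared words. BOP1 and the markers are named besides. Some items covered by the rule are not reported here.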

Additional observations from a re-analysis of the deposited data

How the results depend on the processing

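NPM1, NPM3 and NPM1P27 kept their direction under every alternative in which they had a value. NPM1 became a call with limma-trend on quantile-normalized values (-0.42) and with no fold threshold (-0.22), and in none of the other 16 alternatives. NPM3 (0.45) was no call at a fold of at least 2. At that fold 498 genes were higher and 502 lower, against 1653 and 1619, and 3 list genes were called against 9. With no fold threshold 18 list genes were called. Over all alternatives, calls among NPM1 partners numbered 3 to 9, among other chaperones 0 to 6, among ribosomal RNA transcription genes 0 to 3 and among large-subunit genes 0 to 1. The cause of the NPM1 shift under limma-trend was not tested. With each library left out in turn, NPM1 was between -0.26 and -0.18, NPM3 between 0.38 and 0.52, NPM1P27 between -0.18 and -0.16, the NPM2 difference between -0.0778 and 0.230 CPM, the higher genes between 1239 and 1632, the lower between 1179 and 1617, and the called list genes between 9 and 11. NPM1P27 has no value where pseudogene rows are merged or left out. The replicate numbers share only a number in the labels. For each gene, the log2 CPM of a library was taken as its deviation from the mean of its group. The correlation of these deviations between same-numbered libraries was -0.13 over all genes tested. It was -0.52 over the 8856 with a mean above 10 CPM. With the replicate block, NPM1 was -0.22 (adjusted p 0.156), NPM3 0.45 (adjusted p 0.000322) and NPM1P27 -0.17 (adjusted p 0.504), and 1637 genes were higher and 1604 lower. With the pairing crossed, added after this correlation was seen, 1955 were higher and 1918 lower. The depth limits NPM2 and the small pseudogene rows, which hold few counts.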
